A study of Mus musculus with 36 samples.

Results

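Apicobasal and planar cell polarity genes were followed through a first and a second skin injury in 2 populations of mouse hair follicle (HF) progeny. The 10 genes are Pard3, Pard6b, Prkci and Cdc42 of the PAR module, Scrib, Llgl2 and Dlg1 of the Scribble module, and Celsr1, Vangl2 and Fzd6 of the core planar polarity pathway. They were taken by name, because the study proposes polarity as a feature of wound-educated cells, and the rule itself uses no measured value. All 10 were among the 20181 genes of the Lrig1 table and the 22587 genes of the Lgr5 table. The mice carried Lrig1-EGFP-ires-CreERT2 or Lgr5-EGFP-ires-CreERT2 together with Rosa26-fl/STOP/fl-tdTomato, so that the labelled cells are the CreERT2-expressing cells at the time of induction and all that descend from them. A single topical dose of hydroxytamoxifen was put on the tail skin of mice of both sexes at 6 to 8 weeks of age, controls included, and 1 week later a full-thickness wound was made in the tail with a biopsy punch. tdTomato+ epidermal cells (Lrig1 GL and Lgr5 GL cells, for genetically labelled) were sorted from a zone that held the wound bed and distal HFs. The time points were 0w, with no wound, then 1w, 2w, 4w and 8w of healing from the first wound (pw1), and 1w of healing from a second wound that was made at 8w and overlapped the first (1w pw2, labelled week 9). Mini-bulk Smart-seq2 RNA-seq gave 3 libraries at each of 6 time points in each population, or 36 libraries.

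Apicobasal polarity sets the apical apart from the basal side of an epithelial cell. The GTP-bound form of the small GTPase CDC42 binds PAR6, which with PAR3 and atypical PKC marks the apical domain, and atypical PKC phosphorylates and displaces the basolateral proteins Scribble, LGL and DLG, which oppose it in turn. Planar cell polarity (PCP) aligns cells within the plane of the sheet: the atypical cadherin CELSR1 bridges neighbouring cells, with Frizzled and Dishevelled on one side of the junction and VANGL2 with Prickle on the other. In skin the core PCP proteins are known for the common tilt of the HFs, and both systems are known to act when keratinocytes migrate into a wound. They work largely through where the proteins sit in the cell, which RNA counts do not measure.

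The Lrig1 GL libraries held from 765252 to 3365666 counts and the Lgr5 GL libraries from 1297798 to 6960537, and the detection floor of 3 counts corresponded to 1.01 to 3.39 and 0.389 to 2.92 CPM (counts scaled to the TMM-adjusted library total). No molecular identifiers were used, so such floors cover counting error only. The markers were those of epidermal cells: 6 keratinocyte genes summed to between 9365 and 31399 CPM in every library. The immune markers listed (3 and 2 of 7 in the tables of Lrig1 and Lgr5) stayed at or below 33.3 CPM in sum, and fibroblast markers at 2.52 to 89.6 CPM in Lrig1 GL and 54.9 to 378 CPM in Lgr5 GL libraries. The libraries are pools of cells, so fewer cells of a type and less RNA per cell cannot be told apart in any value that follows. GC content moved with the groups in Lrig1 GL cells. At 1w pw2 against 0w, the tested genes up to the lower quartile of exon GC content (45.5%) had a median log2 fold change of 0.81 and those from the upper quartile (54.4%) one of -0.65, and at 8w pw1 these medians were 1.00 and -0.72. In Lgr5 GL cells they were 0.02 and -0.02 at 1w pw2 against 0w, and 0.27 and 0.09 at 1w pw2 against 1w pw1. The single gene Gm12415 took 12.04 to 52.1% of the counts of every Lgr5 GL library (49.7%, 40.5% and 12.04% at 1w pw1), whereas the most abundant gene took at most 5.12% in Lrig1 GL libraries. Mitochondrial genes took 10.9 to 14.4% of the counts at 8w pw1 in Lrig1 GL cells and 3.15 to 5.38% at 0w. Cdc42, Dlg1 and Prkci have low GC contents of 41.6%, 43.0% and 44.1%, whereas Scrib, Celsr1, Llgl2 and Vangl2 lie between 57.9% and 60.2%, so a value with the trend on GC content removed from each library is given beside results on which it bears.

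None of the 10 genes passed the test of any change across the time course, at an adjusted p under 0.05 in edgeR's quasi-likelihood F-test, in either population. Of all genes tested, 1.66% passed for Lrig1 GL and 1.19% for Lgr5 GL cells. At an unadjusted p under 0.05 Cdc42 and Vangl2 were 2 of 10 members in Lrig1 GL cells, against 20.5% of all genes, and Dlg1, Cdc42 and Celsr1 were 3 of 10 in Lgr5 GL cells, against 16.9%. DESeq2 and edgeR's likelihood ratio test each passed 1 member, Dlg1 in the Lgr5 GL population, where they passed 11.0% and 12.1% of all genes, and limma-voom passed none. Groups of 3 libraries cannot reach a two-sided p under 0.1 in an exact permutation test. The paper counts the replicates of this RNA-seq in mice, whereas the labels do not tie a library to a mouse. On the paper's account the p-values measure the spread between mice, and on the labels alone only that between these libraries.

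No member passed at a single time point against 0w either. The share of all genes that passed in Lrig1 GL cells was 0.217% at 1w pw1, 0% at 2w, 0.0419% at 4w, 2.86% at 8w and 1.24% at 1w pw2, and in Lgr5 GL cells 1.29% at 1w pw1, 0.155% at 4w and 0% at 2w, at 8w and at 1w pw2. DESeq2 and the likelihood ratio test passed 1 member, Cdc42 at 1w pw2 in Lrig1 GL cells, where they passed 7.70% and 5.85% of all genes. At an unadjusted p under 0.05 stood Pard6b at 1w pw1, Cdc42 and Vangl2 at 2w, Vangl2 at 4w, Dlg1 at 8w and Cdc42 and Vangl2 at 1w pw2 in Lrig1 GL cells, where 11.0%, 10.5%, 8.37%, 22.9% and 18.5% of all genes did. Dlg1 at 4w was the only one in Lgr5 GL cells, where the shares from 1w pw1 to 1w pw2 were 18.6%, 8.79%, 10.7%, 5.94% and 6.42%. The 3 libraries of a time point did not overlap those of 0w for 1, 3, 1, 2 and 1 of 10 members in Lrig1 GL cells in the same order, against 13.9%, 11.4%, 10.6%, 27.6% and 24.3% of all genes. The Lgr5 GL counts were 1, 0, 2, 1 and 2, against 19.8%, 13.2%, 14.4%, 11.2% and 12.3%. The 5 contrasts share the same 3 control libraries, so they are not independent of each other. Only 0w was unwounded, so wound, age and time since labelling go together in each of them. The plot of log2 fold changes against 0w shows how wide the intervals are.

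**Figure D1:**
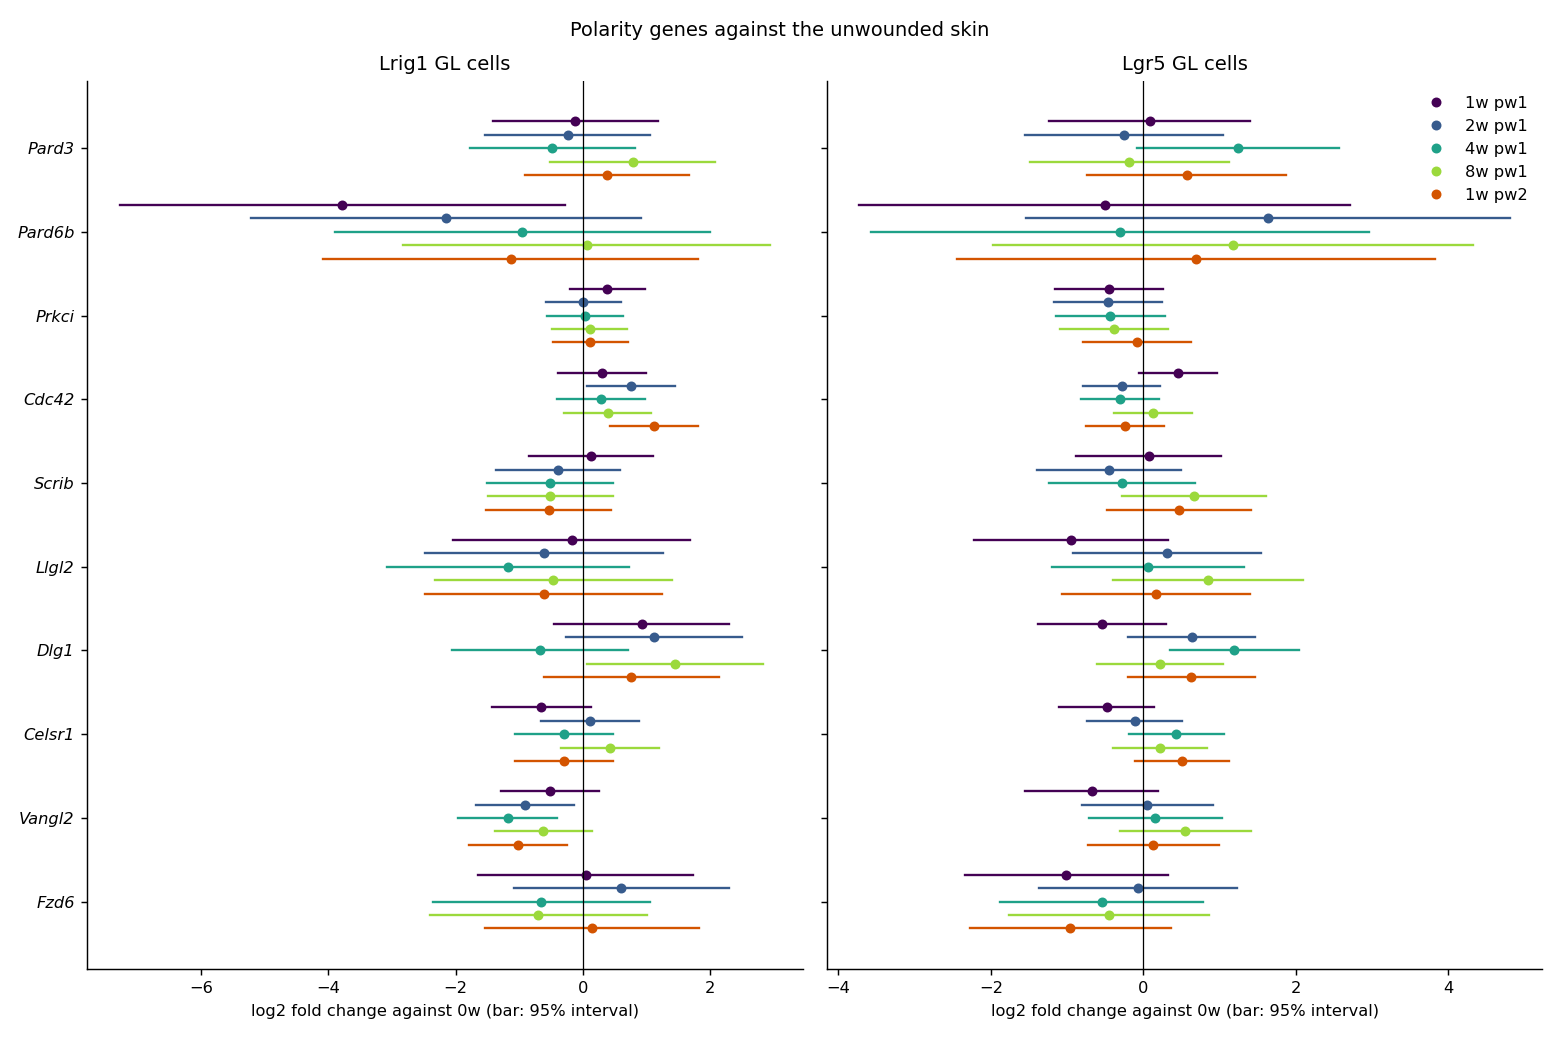
Log2 fold change of each polarity gene (rows) against the unwounded skin in Lrig1 GL (left) and Lgr5 GL cells (right), with 1 point for each later time point and bars for the 95% interval of edgeR's quasi-likelihood fit. Most intervals cover 0, and the exceptions are Cdc42, Vangl2, Dlg1 and Pard6b in Lrig1 GL cells and Dlg1 in Lgr5 GL cells, none of which passed after adjustment.

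Levels per length of exon ordered the genes in much the same way in both populations. Cdc42 had by far the highest level, with means over 3 libraries from 97.3 to 212 CPM per kb in Lrig1 GL and from 66.6 to 113 CPM per kb in Lgr5 GL cells. Prkci, the atypical PKC iota, came next at 34.4 to 45.0 CPM per kb for Lrig1 GL and 17.0 to 23.6 for Lgr5 GL cells. Celsr1 followed with 14.7 to 31.0 and 12.1 to 23.9 CPM per kb, a range that overlapped that of Prkci in Lgr5 GL but not in Lrig1 GL cells. The range of Vangl2 overlapped that of Celsr1, the ranges of Vangl2, Scrib and Dlg1 overlapped each other, and so did those of Llgl2, Fzd6 and Pard3. These ranges span the time points, and differences between genes within the same libraries were not tested. The mean of Celsr1 lay above that of Vangl2 at every time point in both populations. That of Vangl2 lay above that of Scrib at every time point in Lrig1 GL but not in Lgr5 GL cells. Pard6b was lowest, at 0.267 to 3.75 CPM per kb for Lrig1 GL and 0.625 to 2.83 for Lgr5 GL cells, with no count at all in 3 of 18 and 4 of 18 libraries, and its range too overlapped those of Fzd6 and Pard3. The plot of levels per kb shows this order.

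**Figure D2:**
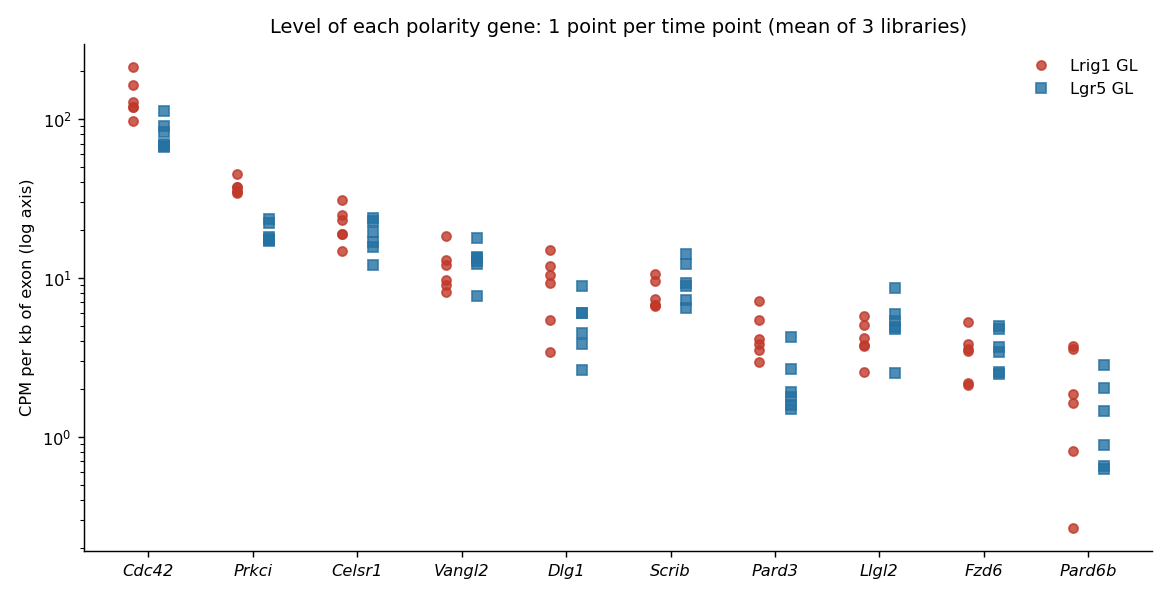
Level of each polarity gene in CPM per kb of exon (log axis), with 1 point for the mean of 3 libraries at each of 6 time points in Lrig1 GL (circles) and Lgr5 GL cells (squares). Cdc42 lies between 66.6 and 212 CPM per kb and Pard6b at or below 3.75.

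Cdc42 (chromosome 4, 137319696 to 137357720, minus strand, GRCm38) had the smallest p of the 10 for a difference between the populations, given further on. In Lrig1 GL cells it was at 211, 315 and 340 CPM at 0w, at 292, 308 and 464 CPM at 1w pw1, at 344, 366 and 749 CPM at 2w, at 267, 384 and 404 CPM at 4w, and at 297, 387 and 453 CPM at 8w. At 1w pw2 it reached 550, 610 and 726 CPM, above every library of 0w, 1w pw1, 4w and 8w. Its log2 fold change at 1w pw2 against 0w was 1.12 ± 0.33 (SE), with a 95% interval from 0.43 to 1.82, an unadjusted p of 0.00318 and an adjusted p of 0.0915 (edgeR). It was called by DESeq2 (adjusted p = 0.0140) and by edgeR's likelihood ratio test (adjusted p = 0.0366), and not by limma-voom. The 695 low-GC genes with a mean of at least 200 counts had a median log2 fold change of 0.92 in the same contrast, and with the trend on GC content removed the value of Cdc42 went from 1.12 to -0.09 (adjusted p = 0.933, edgeR). At 8w it went from 0.39 ± 0.33 to -0.98 (adjusted p = 0.158, edgeR) when the trend was removed. At 2w it was 0.76 ± 0.33 above 0w, with all 3 libraries above those of 0w (adjusted p = 0.437, edgeR), and 0.23 with the trend removed.

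Cdc42 took another course in Lgr5 GL cells. It stood at 201, 245 and 285 CPM at 0w and at 330, 331 and 342 CPM at 1w pw1, where all 3 libraries lay above those of 0w. It was then at 165, 172 and 264 CPM at 2w, at 162, 215 and 216 CPM at 4w, at 265, 265 and 267 CPM at 8w and at 165, 216 and 238 CPM at 1w pw2. The libraries of 1w pw2 lay below all those of 1w pw1 and of 8w. The log2 difference between the second and the first injury was -0.70 ± 0.24 (SE; unadjusted p = 0.0101, adjusted p = 0.177, edgeR), with DESeq2 giving an adjusted p of 0.0403. The abundant low-GC genes had a median of 0.09 in this contrast, and with the trend removed Cdc42 was at -1.27 (adjusted p = 0.0838, edgeR). Removing the trend also moved the median of all genes from 0.09 to -0.21.

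**Figure D3:**
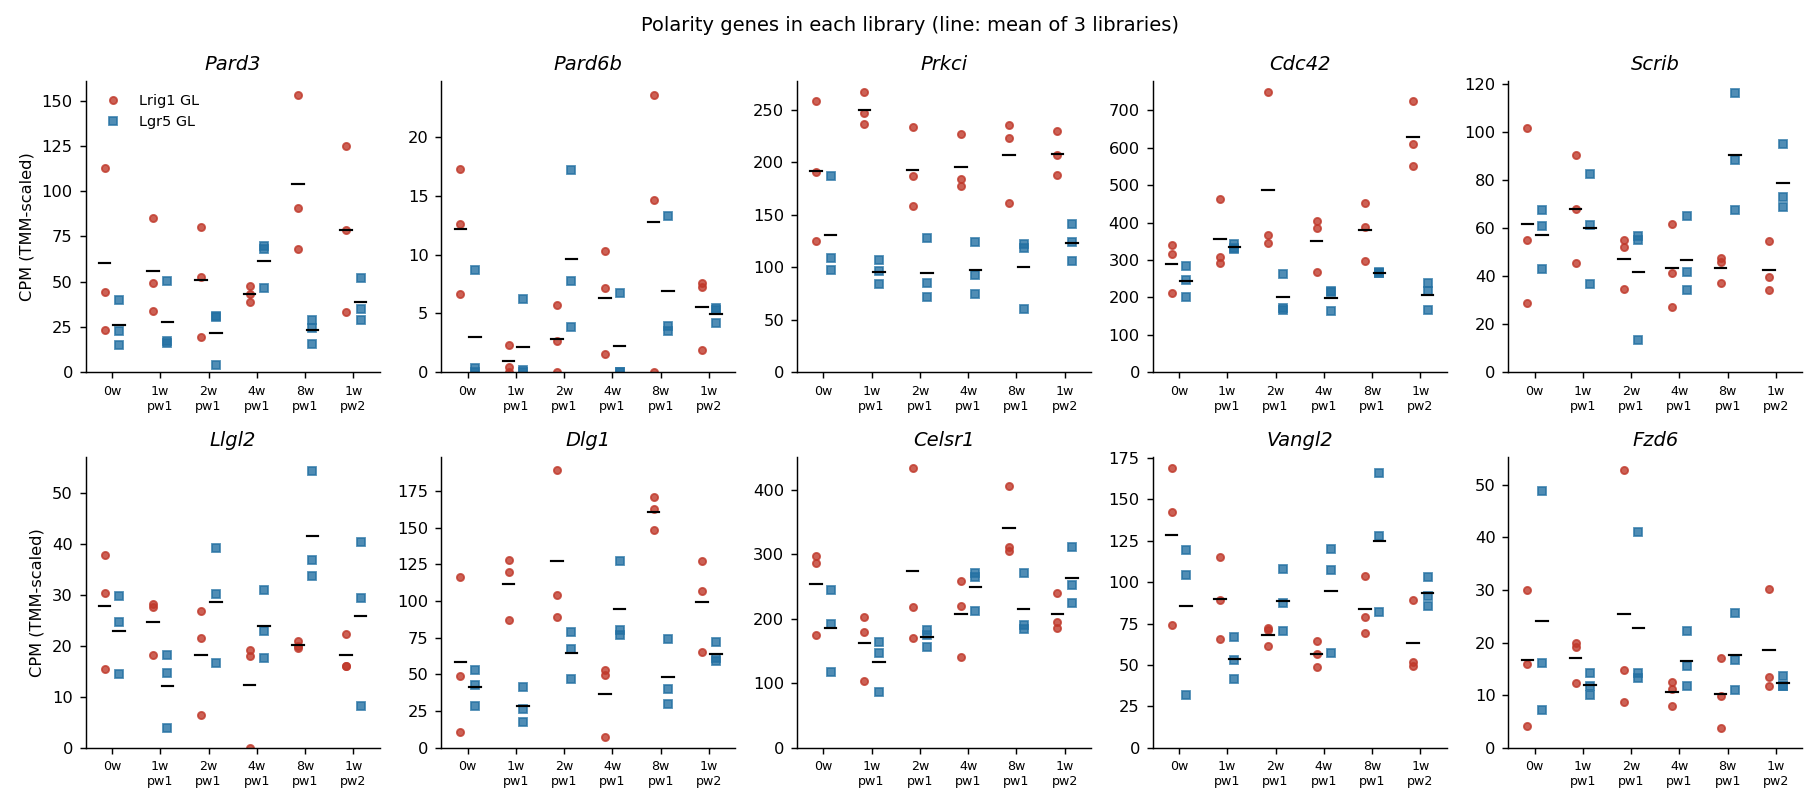
CPM of the 10 polarity genes in every library, by time point, with Lrig1 GL libraries as circles, Lgr5 GL libraries as squares and the mean of 3 libraries as a line. Cdc42 at 1w pw2 lies at 550 to 726 CPM in Lrig1 GL and at 165 to 238 CPM in Lgr5 GL cells, and for most other genes the libraries of neighbouring time points overlap.

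Prkci, the kinase of the PAR module, overlapped its 0w libraries at every time point in both populations. In Lrig1 GL cells it was at 125, 190 and 258 CPM at 0w and at 187, 207 and 230 CPM at 1w pw2, a log2 fold change of 0.12 with a 95% interval from -0.47 to 0.71. With the trend on GC content removed this value was -0.69 (unadjusted p = 0.0289, adjusted p = 0.298, edgeR), and that at 8w went from 0.11 to -0.79 (unadjusted p = 0.0143, adjusted p = 0.187, edgeR). Its libraries at 1w pw1, at 236, 247 and 267 CPM, lay above the 3 at 1w pw2 (log2 difference -0.27 ± 0.28, adjusted p = 0.826, edgeR, and -0.86 with an unadjusted p of 0.00897 and an adjusted p of 0.887 with the trend removed). The Lgr5 GL libraries were at 96.8, 109 and 187 CPM at 0w and at 105, 124 and 141 CPM at 1w pw2, a log2 fold change of -0.08 with an interval from -0.79 to 0.62.

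Pard3, the scaffold of the PAR module, ranged from 19.5 to 153 CPM over the Lrig1 GL libraries and from 3.70 to 69.6 CPM over the Lgr5 GL libraries. The libraries at 0w alone spanned 23.1, 44.2 and 113 CPM in Lrig1 GL cells. The 3 Lgr5 GL libraries at 4w (46.4, 68.1 and 69.6 CPM) lay above their 0w libraries (14.8, 22.9 and 40.1 CPM), with a log2 fold change of 1.24 ± 0.63 (adjusted p = 0.509, edgeR). Pard6b, the adaptor through which CDC42 reaches atypical PKC, was at the limit of detection. It had 13, 27 and 31 counts at 0w against 0, 1 and 2 at 1w pw1 in Lrig1 GL cells, all at or below the floor of 3 counts (unadjusted p = 0.0355, adjusted p = 0.413, edgeR). At 1w pw2 it had 5, 11 and 16 counts, and in Lgr5 GL cells 0 to 88 counts over all libraries.

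Dlg1, a membrane-associated guanylate kinase of the Scribble module, had the smallest time-course p of the 10 genes in Lgr5 GL cells (unadjusted p = 0.00869, adjusted p = 0.150, edgeR). It was at 28.3, 43.0 and 52.9 CPM at 0w, 17.5, 26.2 and 41.1 CPM at 1w pw1, 46.8, 67.5 and 78.8 CPM at 2w, 77.1, 80.01 and 127 CPM at 4w, 29.6, 40.0 and 74.2 CPM at 8w and 59.0, 61.5 and 71.9 CPM at 1w pw2. The libraries at 4w and at 1w pw2 lay above all those at 0w. The log2 fold change at 4w was 1.19 ± 0.40 (adjusted p = 0.303, edgeR), and 1.12 with the trend on GC content removed. The Lrig1 GL libraries at 8w, at 148, 163 and 171 CPM, lay above those at 0w, at 10.8, 48.7 and 116 CPM. This log2 fold change of 1.45 ± 0.66 (adjusted p = 0.198, edgeR) went to 0.43 with the GC trend removed. At 4w the same population was at 7.15, 49.5 and 52.8 CPM, which overlapped 0w.

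Scrib, which gives the module its name, was at 28.7, 55.1 and 102 CPM at 0w and 34.0, 39.6 and 54.6 CPM at 1w pw2 in Lrig1 GL cells, and the groups overlapped at every time point. The Lgr5 GL libraries of 1w pw2 (68.9, 73.0 and 94.97 CPM) lay above those of 0w (43.1, 60.8 and 67.7 CPM), a log2 fold change of 0.46 ± 0.45 (adjusted p = 0.995, edgeR). Llgl2, an LGL homologue of epithelia, was low, with 0 to 61 counts per Lrig1 GL library and 18 to 226 per Lgr5 GL library. Its libraries at 8w in Lgr5 GL cells (33.7, 36.8 and 54.3 CPM) lay above 0w (14.5, 24.7 and 29.7 CPM), with a log2 fold change of 0.85 ± 0.59 (adjusted p = 0.988, edgeR). Its log2 fold changes against 0w in Lrig1 GL cells ran from -1.18 at 4w to -0.17 at 1w pw1, with groups that overlapped at each time point. The sign depended on the setting: with the GC trend removed the value at 8w went from -0.46 to 0.08, and with surrogate variables those at 1w pw1, 8w and 1w pw2 were 0.61, 2.02 and 0.98.

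Vangl2, the transmembrane core PCP protein, had unadjusted p-values under 0.05 at 3 of 5 time points in Lrig1 GL cells. It was at 74.4, 142 and 169 CPM at 0w, at 65.5, 89.4 and 115 CPM at 1w pw1, at 61.2, 71.1 and 72.4 CPM at 2w, at 49.0, 56.8 and 64.4 CPM at 4w, at 69.2, 78.8 and 103 CPM at 8w and at 49.3, 51.6 and 89.2 CPM at 1w pw2. The libraries at 2w and 4w lay below all 3 of 0w, whereas those at 1w pw1, 8w and 1w pw2 overlapped them. The log2 fold change was -0.91 ± 0.37 at 2w, -1.18 ± 0.37 at 4w and -1.02 ± 0.37 at 1w pw2, with adjusted p-values of 0.403, 0.420 and 0.154 (edgeR). With the trend on GC content removed the value at 4w was -1.17, that at 2w -0.77 and that at 1w pw2 -0.52. Vangl2 in Lgr5 GL cells was at 32.1, 105 and 120 CPM at 0w, 57.4, 108 and 120 CPM at 4w and 85.8, 91.7 and 103 CPM at 1w pw2, with log2 fold changes of 0.16 ± 0.41 and 0.13 ± 0.41.

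Celsr1, the PCP cadherin, was at 175, 287 and 298 CPM at 0w in Lrig1 GL cells, at 306, 312 and 406 CPM at 8w and at 185, 195 and 240 CPM at 1w pw2. The libraries at 8w lay above those of 0w and of 1w pw2. Its log2 fold change at 8w was 0.43 ± 0.36 (adjusted p = 0.5001, edgeR), and 1.05 with the trend on GC content removed (adjusted p = 0.166). In Lgr5 GL cells it was at 118, 192 and 245 CPM at 0w, 86.8, 147 and 164 CPM at 1w pw1 and 224, 253 and 311 CPM at 1w pw2, so that the libraries after the second injury lay above all those after the first. Fzd6, the Frizzled receptor of hair patterning, ranged from 3.66 to 52.9 CPM in Lrig1 GL and from 7.24 to 48.8 CPM in Lgr5 GL libraries, and its groups overlapped in every contrast. Fzd6 shares 152 bases of exon with Gm26704 on the opposite strand, and without strand reads there cannot be told apart. Gm26704 held 75 counts over all Lrig1 GL and 195 over all Lgr5 GL libraries.

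The second injury was set against the first at the same interval, 1w, which asks whether the genes answer a repeated wound differently. The mice of 1w pw2 were also older and further from labelling, which cannot be told apart from the repeated wound. No member passed in Lrig1 GL cells, where 0% of all genes did (edgeR). At an unadjusted p under 0.05 stood 1 of 10, Cdc42, against 8.87% of all genes, and DESeq2 passed none. No member passed in Lgr5 GL cells either, where 0.266% of all genes did (edgeR). At an unadjusted p under 0.05 stood 3 of 10, Cdc42, Celsr1 and Dlg1, against 16.8%, and DESeq2 passed 2, Cdc42 and Celsr1, with 5.44% of all genes. Celsr1 was higher in Lgr5 GL cells by 0.99 ± 0.30 on the log2 scale (95% interval 0.36 to 1.61, adjusted p = 0.130, edgeR), and Dlg1 by 1.17 ± 0.40 (adjusted p = 0.173, edgeR). With the GC trend removed they were at 0.73 and 0.70, where the median of all genes went from 0.09 to -0.21. The libraries of 4 of 10 members did not overlap between the injuries, with Celsr1, Dlg1 and Vangl2 above and Cdc42 below, where 24.7% of all genes did not overlap. The log2 difference was above 0 for 9 of 10 members, against 53.4% of all genes, and the median was 0.64 against 0.09. Without any 1 library it was above 0 for 8 or 9 members. With the GC trend removed it was above 0 for 7, against 42.55% of all genes, with a median of 0.42 against -0.21. The same contrast in Lrig1 GL cells was above 0 for 5 of 10 members, against 49.6% of all genes, with a median of -0.03, and 2 of 10 did not overlap, Cdc42 above and Prkci below, against 20.0%. Against 8w pw1, 1w pw2 passed no member, with 0.00699% of all genes for Lrig1 GL and 0% for Lgr5 GL cells (edgeR, and none by DESeq2). There 1 of 10, Cdc42, had an unadjusted p under 0.05 in Lrig1 GL cells, against 5.72%, and 0 in Lgr5 GL cells, against 3.83%. The libraries did not overlap for 3 of 10 in Lrig1 GL cells (Cdc42 above, Celsr1 and Dlg1 below), against 17.7%, and for 1, Cdc42 below, in Lgr5 GL cells, against 12.5%. The plot of the second against the first injury shows both populations.

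**Figure D4:**
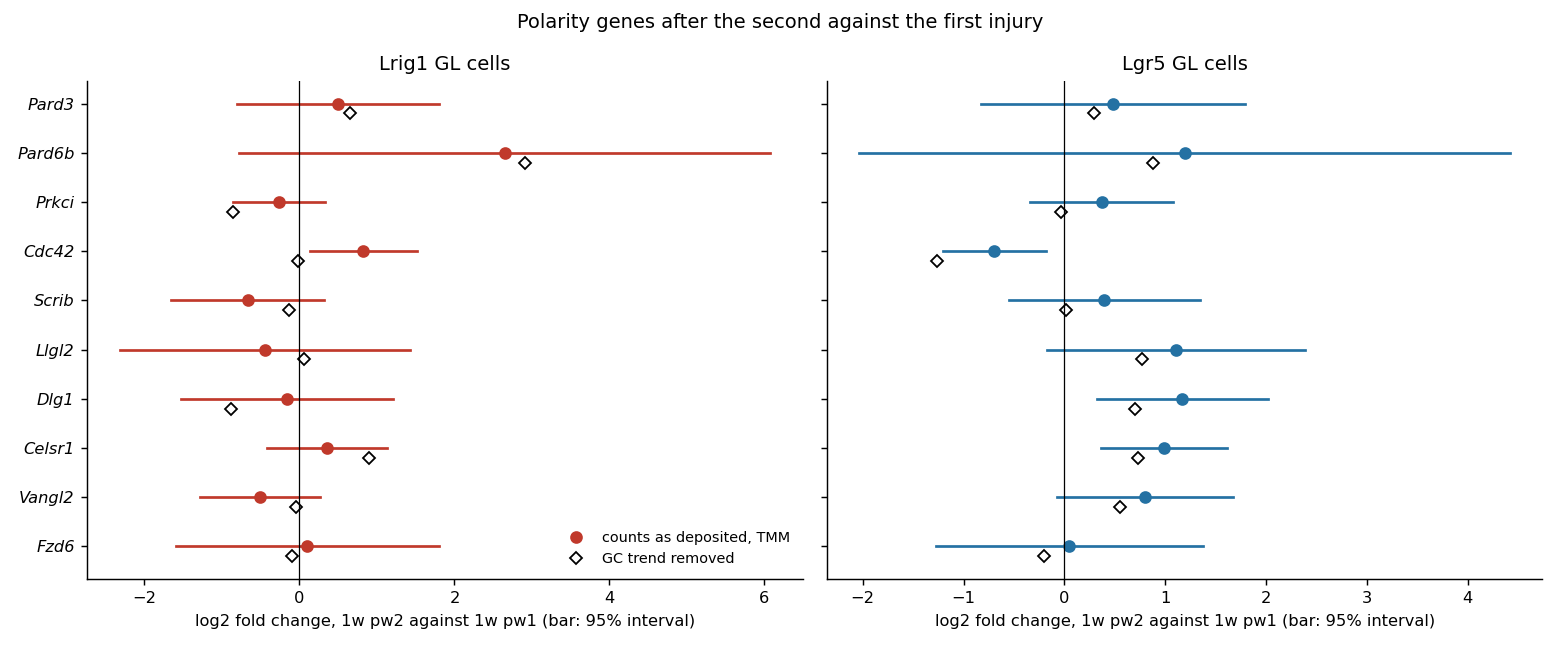
Log2 fold change of each polarity gene at 1w pw2 against 1w pw1, with its 95% interval (filled circles and bars) and with the trend on GC content removed (open diamonds), in Lrig1 GL (left) and Lgr5 GL cells (right). Cdc42 stands at 0.82 for Lrig1 GL and -0.70 for Lgr5 GL cells, and with the trend removed at -0.01 and -1.27. The medians of all genes with the trend removed are -0.06 and -0.21.

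In the Lgr5 GL population, where none passed, 3 of 10 members lay above 0w and 7 below at 1w pw1, where 46.5% of all genes lay above, with a median log2 fold change of -0.50 against -0.08. Without any 1 library 1 to 4 lay above, with medians from -0.76 to -0.17. The contrast between the injuries uses the same libraries of 1w pw1. At 1w pw2 7 of 10 lay above 0w, where 49.8% of all genes did, with a median of 0.31. Without any 1 library 5 to 8 did, with medians from 0.04 to 0.45. Wound keratins (Krt6a, Krt6b, Krt16 and Krt17) summed to 2848 to 5056 CPM at 0w and 6605 to 11075 CPM at 1w pw1 in these cells. At 1w pw2 they summed to 3244 to 4198 CPM, within the range of 0w. The 6 bulge and hair germ markers (Lgr5, Cd34, Sox9, Lhx2, Cdh3 and Postn), none of them at 0 over all libraries of a time point, summed to 3626 to 6658 CPM at 0w, 1778 to 4461 CPM at 1w pw1 and 3156 to 4523 CPM at 1w pw2. Their median log2 fold change was -1.40 at 1w pw1. There the libraries of 4 of 6 lay below 0w, where 19.8% of all genes did not overlap 0w. Only Sox9 passed, as lower, against 0.860% of all genes (edgeR). For the second against the first injury the median was 0.92, with 4 of 6 above 0, against 53.4% of all genes. None passed there (edgeR), and 3 of 6 had an unadjusted p under 0.05, against 16.8% of all genes. The part of the wound keratins and of these markers in the result was not tested. Among the 6 listed, the paper uses Postn as a marker of the infundibulum in the upper HF, and the sums and medians include it.

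A joint fit of both tables, over 16153 genes, compared the populations. Before injury no member differed, where 2.90% of all genes passed (edgeR). At an unadjusted p under 0.05 stood 0 of 10, against 17.5%, and DESeq2 passed none. Population, mouse line and table cannot be told apart there. No member passed for the change at any later time point, where the share of all genes was 0.0495% at 1w pw1, 0% at 2w, 0.0929% at 4w, 1.11% at 8w and 0.155% at 1w pw2 (edgeR). The members at an unadjusted p under 0.05 were Cdc42 at 2w (against 9.34% of all genes), Vangl2 and Dlg1 at 4w (10.5%) and Cdc42 and Vangl2 at 1w pw2 (13.0%), with none at 1w pw1 (15.0%) or 8w (17.6%). DESeq2 passed 1, Cdc42 at 1w pw2, with 1.99% of all genes. The change of Cdc42 from 0w to 1w pw2 was larger in Lrig1 GL cells by 1.41 ± 0.40 on the log2 scale (unadjusted p = 0.00135, adjusted p = 0.126, edgeR), and by 0.30 with the trend on GC content removed.

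For the second against the first injury 0.0557% of all genes differed between the populations and no member did (edgeR). Cdc42 and Vangl2 had an unadjusted p under 0.05, against 12.7% of all genes. Cdc42 differed by 1.58 ± 0.40 on the log2 scale, with a 95% interval from 0.77 to 2.40, an unadjusted p of 0.000413 and an adjusted p of 0.0779 (edgeR). Here it passed with DESeq2 (adjusted p = 0.0139), edgeR's likelihood ratio test (adjusted p = 0.0245) and limma-voom (adjusted p = 0.00875), which passed 1.80%, 1.45% and 1.45% of all genes. With the trend removed it was 1.18 (unadjusted p = 0.0198, adjusted p = 0.326, edgeR). Vangl2 differed by -1.26 ± 0.55 in this contrast and by -1.37 ± 0.54 for the change from 0w to 4w (adjusted p = 0.323 and 0.364, edgeR), and with the trend removed by -0.67 and -1.43.

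Beyond the 10 genes, 7 lists covered the PAR, Scribble and Crumbs complexes, the PAR-1 and LKB1 kinases, the core PCP genes, the PCP ligands, receptors and effectors, and the regulators and effectors of CDC42. As reported here they held 92 genes, the 10 members included, of which 78 were tested for Lrig1 GL and 86 for Lgr5 GL cells. Across the time course none of these passed in the Lrig1 GL or the Lgr5 GL population (edgeR; 15 of 78 and 16 of 86 at an unadjusted p under 0.05, against the 20.5% and 16.9% of all genes given above). At single time points 1 gene passed in Lrig1 GL cells, higher at 8w, where 1.54% of all genes were. There were 3 in Lgr5 GL cells, all at 1w pw1, 2 of them lower and 1 higher, where 0.860% and 0.433% of all genes were. The second against the first injury passed none (6 of 78 and 18 of 86 at an unadjusted p under 0.05, against the 8.87% and 16.8% above).

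Dvl1 (a Dishevelled, which carries the Frizzled signal) and Ankrd6 (diversin, which binds Dishevelled) fell in Lgr5 GL cells at 1w pw1, and these 2 of 14 core PCP genes tested were the only ones to pass. Dvl1 was at 56.5, 62.7 and 91.7 CPM at 0w and 22.8, 25.4 and 30.0 CPM at 1w pw1, and it fell by 1.44 ± 0.33 on the log2 scale (adjusted p = 0.0406, edgeR), which did not pass with the GC trend removed (-1.16, adjusted p = 0.0893). Ankrd6 was at 15.2, 16.2 and 30.7 CPM at 0w and 0.542, 0.566 and 1.63 CPM at 1w pw1. It fell by 4.45 ± 0.96 on the log2 scale (adjusted p = 0.0327, edgeR), a size that rests on 1 to 5 counts per library at 1w pw1. The libraries did not overlap for either gene. Over the core PCP list, which includes Celsr1, Vangl2 and Fzd6, 13 of 14 genes lay below 0w at 1w pw1, where 46.5% of all genes lay above. The list's median was -0.83, against -0.08 over all genes. Between the injuries 13 of 14 lay higher after the second, against 53.4% of all genes, with a median of 0.88 against 0.09. Both contrasts use the same libraries of 1w pw1. At 1w pw2 against 0w 6 of 14 lay above 0, against 49.8% of all genes, with a median of -0.21. At 1w pw1 and between the injuries the bulge and hair germ markers had the medians of -1.40 and 0.92 given above, and their part in the result was not tested. At 1w pw2 the libraries of Ankrd6 were at 3.76, 8.95 and 11.8 CPM and those of Dvl1 at 29.6, 52.8 and 70.8 CPM, which overlapped 0w for Dvl1 only.

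Wnt5a, the ligand of non-canonical Wnt signalling, rose in Lgr5 GL cells at 1w pw1 from 3.18, 4.77 and 8.62 CPM to 18.7, 34.7 and 91.3 CPM, a log2 fold change of 3.15 ± 0.74 (adjusted p = 0.0434, edgeR). Its libraries also lay above 0w at 2w (42.0, 68.5 and 75.1 CPM), at 4w (17.5, 21.5 and 76.3 CPM) and at 1w pw2 (16.0, 21.2 and 54.6 CPM), with adjusted p-values of 0.154, 0.149 and 0.615, and overlapped 0w at 8w. Wnt5a in Lrig1 GL cells was at 0.812, 10.2 and 43.1 CPM at 0w and 60.7, 72.4 and 115 CPM at 1w pw1, which did not overlap (adjusted p = 0.479, edgeR).

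Amotl2, an angiomotin-like protein of cell junctions with a GC content of 58.8%, rose in Lrig1 GL cells at 8w pw1. It went from 2.56, 2.57 and 9.34 CPM at 0w to 18.2, 34.8 and 45.5 CPM at 8w, a log2 fold change of 2.73 ± 0.72 (adjusted p = 0.0497, edgeR), and was at 3.39 with the trend removed (adjusted p = 0.0600). The plot of these genes by library shows all time points.

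**Figure D5:**
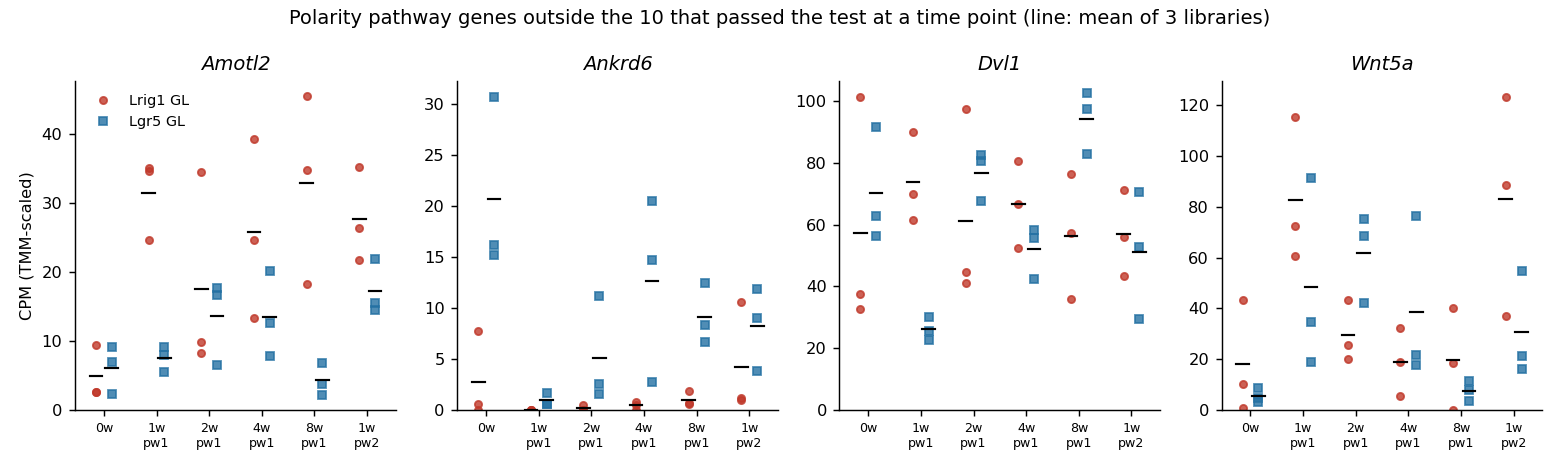
CPM of 4 genes of the wider lists that passed the test at a time point, in each Lrig1 GL (circles) and Lgr5 GL library (squares), with the mean of 3 libraries as a line. Amotl2 passed at 8w in Lrig1 GL cells, where it reached 18.2 to 45.5 CPM, and Ankrd6, Dvl1 and Wnt5a passed at 1w pw1 in Lgr5 GL cells.

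These 4 calls lay close to the threshold. Leaving out 1 library at a time, Ankrd6 kept its call in 12 of 18 fits and lost it without replicates a or b of 0w, any replicate of 1w pw1 or replicate b of 4w. Dvl1 kept it in 6 of 18, those without replicate c of 0w, replicate a of 2w, 4w or 8w, or replicates 1 or 3 of 1w pw2. Wnt5a kept it in 6 of 18, those without replicate c of 0w, replicates 2 or 3 of 1w pw1, replicates a or b of 4w, or replicate 1 of 1w pw2. Amotl2 kept it in 2 of 18, those without replicate 2 of 0w or replicate c of 2w.

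Of 86 genes in Lgr5 GL cells 65 lay higher after the second than after the first injury, with a median of 0.61 against 0.09 over all genes, and 62 to 68 did so without any 1 library. At 1w pw1 62 of 86 lay below 0w, where 46.5% of all genes lay above, with a median of -0.49 against -0.08. Both counts use the same libraries of 1w pw1. At 1w pw2 45 of 86 lay above 0w, with a median of 0.02. With the trend on GC content removed the first count was 57 of 86, against 42.55% of all genes, with a median of 0.21 against -0.21. At 1w pw1 34 of 86 then lay above 0w, against 53.0% of all genes, with a median of -0.24 against 0.09. At 1w pw2 40 of 86 lay above 0w, against 42.74% of all genes, with a median of -0.06 against -0.12. The lists hold the members and share their libraries, so this is no separate evidence of the members' direction. Of 78 in Lrig1 GL cells 36 lay higher after the second injury, with a median of -0.05.

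The genes most like a member in their pattern over the 18 libraries of a population were looked up for the member with the smallest time-course p. For Cdc42 in Lrig1 GL cells these were Tomm22 (Pearson's r = 0.885 of log2 CPM), Gm9892 (0.876) and Vapa (0.866), out of 12141 genes with a mean of at least 10 counts. For Dlg1 in Lgr5 GL cells they were Gm37303 (0.889), Gm43571 (0.870) and Akap13 (0.854), out of 14394. These correlations share libraries, depth and the trend on GC content and are given as a description.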

How the data were processed

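The authors trimmed the reads with Trim Galore 0.5.0, aligned them to GRCm38 with HISAT2, and ran featureCounts over the exons of GENCODE M20, summed per gene name. They deposited the raw counts without normalization, in 1 table per population. Every gene listed reached 1 CPM in at least 3 libraries, so genes below that were not analysed here. For 21 of 36 libraries the replicate numbers of the tables are not those of the labels. These were matched to their group only and called a, b and c.

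The test was that of edgeR 4.0.16 under R 4.3.3: filterByExpr by group with a minimum of 10 counts (14306 genes in Lrig1 GL, 18025 in Lgr5 GL, 16153 in the joint fit), TMM, a prior count of 0.125, the quasi-likelihood F-test and Benjamini-Hochberg adjustment over all genes tested, with calls at 0.05. CPM use the TMM-scaled totals. Exon lengths, positions and GC contents came from GENCODE M21 on GRCm38, which holds 99.4% and 99.3% of the names in the tables. The trend on GC content was a lowess curve per library, used as an offset. Likelihood ratio tests, DESeq2 1.42.0, limma-voom (limma 3.58.1) with quality weights, DESeq2's size factors, no filter, surrogate variables (sva 3.50.0), a replicate block, removal of the most abundant gene, a prior count of 2 and leaving out each library were alternatives. The count of members on each side of 0 under these settings was added after the data had been seen. The methods were tested on simulated data.

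Named genes were the 10 members, every gene of the wider lists with an adjusted p under 0.05 in a population, and the 3 genes most correlated with the member of smallest time-course p. 1 gene of the wider lists, which passed in Lrig1 GL cells, is not reported here and is left out of their counts. The members and lists were chosen with earlier results of these data known.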

Additional observations from a re-analysis of the deposited data

Results flagged for a closer look

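Cdc42 was singled out because its libraries after the second injury lay on opposite sides of the earlier ones in the populations. At 1w pw2 against 1w pw1 all Lrig1 GL libraries lay above and all Lgr5 GL libraries below, and the log2 fold changes from the separate fits differed by 1.52. The joint fit tested this difference at 1.58, with an adjusted p of 0.0779 (edgeR), as given above. At 1w pw2 against 8w pw1 all Lrig1 GL libraries again lay above (0.73 ± 0.33 on the log2 scale) and all Lgr5 GL libraries below (-0.37 ± 0.24), a difference of 1.10 that was not tested. With the trend on GC content removed the values against 8w were 0.89 for Lrig1 GL and -0.49 for Lgr5 GL cells, and those against 1w pw1 were -0.01 and -1.27. The medians of all genes against 1w pw1 were then -0.06 and -0.21.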

How the results depend on the processing

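The number of members called was 0 in each of 23 comparisons, and it stayed at 0 in all 540 fits without 1 library (range 0 to 0) and in 244 of 253 values under other settings. The other 9 values came from other tests. DESeq2 called 1 member for 1w pw2 against 0w in Lrig1 GL cells (Cdc42), 2 for 1w pw2 against 1w pw1 in Lgr5 GL cells (Cdc42 and Celsr1), 1 across the Lgr5 GL time course (Dlg1), and 1 in each of the joint tests at 1w pw2 against 0w and against 1w pw1 (Cdc42). The likelihood ratio test called 1 for 1w pw2 against 0w in Lrig1 GL cells, 1 across the Lgr5 GL time course and 1 in the joint test against 1w pw1, and limma-voom called 1 in the latter. Across all genes the same tests called more: for 1w pw2 against 0w in Lrig1 GL cells 1102 (DESeq2) and 837 (likelihood ratio) against 178. Of the 4 genes called in the wider lists none passed with surrogate variables, a replicate block or limma-voom, Amotl2 and Wnt5a also not without the filter on low counts, Amotl2 and Dvl1 not with the trend on GC content removed, and Amotl2 not without the most abundant gene. Removing the trend on GC content shifted the median of all genes by as much as -0.326 on the log2 scale and surrogate variables (5, 4 and 9 in the Lrig1 GL, Lgr5 GL and joint fits) by up to 0.37, so values under them are read against that shift. A filter of 1 CPM in 3 libraries removed no gene and equals no filter.

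The mean correlation of same-numbered libraries' deviations was -0.00644 for Lrig1 GL and 0.00393 for Lgr5 GL libraries, and with a replicate block 0 members were called. The replicate numbers used are not those of the labels for 21 of 36 libraries, so this cannot decide whether libraries were paired. Low counts limit Pard6b, Llgl2 and Fzd6, whose standard errors at 1w pw2 against 0w in Lrig1 GL cells were 1.40, 0.89 and 0.80 on the log2 scale, against 0.28 for Prkci. Dlg1 and Pard3, with up to 560 and 278 counts per library, had 0.65 and 0.61. The common coefficient of variation between libraries, beyond counting error, was 0.70 in the Lrig1 GL and 0.66 in the Lgr5 GL fit (edgeR), which limits every test here.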
